A study of Mus musculus with 6 samples.

Results

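Histone acetyltransferases were examined in hematopoietic stem cells (HSCs) with and without IRF1, as the 10 genes *Ep300*, *Crebbp*, *Kat2a*, *Kat2b*, *Hat1*, *Kat5*, *Kat6a*, *Kat6b*, *Kat7*, and *Kat8*. Members were chosen by symbol from a table of 26264 genes, and all 10 passed the filter on low values. HSCs were sorted from bone marrow as Lineage-Sca1+cKit+ (LSK) CD150+ CD48- cells of untreated female mice aged 8 weeks, and 1 bulk RNA-seq library was made per mouse. The 3 *Irf1-/-* mice carry the B6.129S2-Irf1 tm1Mak/J allele in the whole body, so HSCs and their environment both carry it. The other 3 mice were wild-type (WT). Libraries carry the replicate numbers 2, 3, and 4 in each genotype, and each library comes from the cells of 1 mouse.

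Histone acetyltransferases transfer acetyl groups from acetyl-CoA to lysines of histones, a modification found at active promoters and enhancers. They fall into the p300/CBP pair, the GNAT family, and the MYST family, and most of them work inside large complexes that set where and on which lysine they act. In HSCs, CBP, p300, and the MYST enzyme MOZ are known for their roles in self-renewal and differentiation, and IRF1 is known to bind p300/CBP in other cell types.

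*Irf1* itself was examined first, as the gene targeted in the *Irf1-/-* mice. Normalized counts, that is, reads per gene after division by the size factor of the library, were 9267, 9524, and 9287 in *Irf1-/-* replicates 2, 3, and 4. In the WT libraries with these numbers, *Irf1* had 10122, 11120, and 12057.5 normalized counts. Every *Irf1-/-* library was below every WT library, but reads were still counted on the gene (log2 fold change −0.24, 95% confidence interval −0.43 to −0.054, adjusted *P* = 0.170 in limma). Of all tested genes, 19.9% also did not overlap between genotypes, so these values alone cannot check the genotype labels. The table gives 1 value per gene, so reads of exons inside and outside the deleted part cannot be told apart.

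Each library held between 43138521 and 59658080 reads on genes. The 10 members together took between 0.0796% and 0.0849% of these reads, and no member had fewer than 564 reads in any library. Markers that define HSCs were present throughout. The summed level of *Kit*, *Ly6a*, *Slamf1*, *Procr*, *Mecom*, *Hlf*, *Hoxa9*, *Meis1*, and *Fgd5* was 157263, 174671, and 160698 normalized counts in *Irf1-/-* libraries and 160722, 155888, and 151715 in WT libraries, with *Kit* the most abundant and none at 0. Of these 9 genes, *Fgd5* and *Procr* were higher and *Ly6a*, which encodes the sorting marker Sca1, was lower in *Irf1-/-* HSCs at an adjusted *P* under the threshold of 0.05 (limma), which 3.22% of all tested genes passed.

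WT replicate 4 stood apart from the other libraries in the level of some neutrophil genes. The neutrophil gene *S100a8* had 1033 normalized counts in it, compared with at most 110.0 in any other library. *S100a9* had 1246 there, compared with at most 131 elsewhere. *Ly6g* had 46.3, compared with at most 1.07 elsewhere. *Elane* (64.5), *Mpo* (253), and *Ctsg* (10.8) did not set WT replicate 4 apart, since *Irf1-/-* replicate 4 held more of each (67.5, 355, and 21.8). Over the whole list of 7 neutrophil and granulocyte progenitor genes, the summed level was 8006, 8164, and 10564 in *Irf1-/-* libraries and 6578, 5139, and 9098 in WT libraries. *Prtn3*, which HSCs and progenitors also transcribe, made up 90.1% of this sum over all libraries together. In WT replicate 4 it had 6445 of the 9098 normalized counts. No gene of the list was at 0 in all libraries. The same library was nearest to the *Irf1-/-* libraries for most members. In 8 of the 10 members, WT replicate 4 lay outside the range of the other WT libraries on the side of the *Irf1-/-* mean, as it did for 58.2% of all tested genes. The part of other cell types in these values was not tested, and fits without WT replicate 4 are given beside several of the results. Leaving out a library on the side of the *Irf1-/-* mean widens the difference between genotypes by construction. These fits are therefore not separate support for a difference.

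The genotypes were set against each other in limma on the scale log2(normalized count + 1), which understates differences of genes with few reads. The fit covered the 17404 genes whose mean was 10 normalized counts or more, and positive log2 fold changes mean higher levels in *Irf1-/-* HSCs. Genes are termed called where the adjusted *P* from limma was below 0.05 and the log2 fold change exceeded 0.58 in either direction. None of the 10 members was called (0 of 10 in limma, compared with 1.91% of all tested genes). None passed the threshold on the adjusted *P* alone either, which 3.22% of all tested genes did (1.73% higher and 1.49% lower in *Irf1-/-* HSCs). After median centring the higher genes were 41.9% of those passing, compared with 53.7% without it. At an unadjusted *P* under 0.05 in limma, 2 of the 10 members passed, *Hat1* and *Kat6b*, compared with 16.5% of all tested genes. For the same pair all libraries of one genotype lay on one side of the other genotype, which is 20% of the members compared with 19.9% of all tested genes. DESeq2 on the recovered reads placed 1 member, *Hat1*, under an adjusted *P* of 0.05 (compared with 5.19% of 24420 genes with any reads), and edgeR placed 0 (compared with 3.29%). The 24420 include low genes that DESeq2 may leave without an adjusted *P*, so its share is not directly comparable with those of limma and edgeR. The counts of members are thus near the background of the whole table.

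Of the 10 members, 6 had a higher and 4 a lower mean log2 level in *Irf1-/-* HSCs, and the median log2 fold change was 0.069, compared with −0.0028 over all tested genes. The 95% confidence intervals of 8 members included 0, and these intervals reached from −0.38 at the lowest to 0.48 at the highest. With 3 mice per genotype, differences inside these intervals were not resolved. In bulk samples, fewer cells of a kind and less RNA per cell cannot be told apart.

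**Figure D1:**
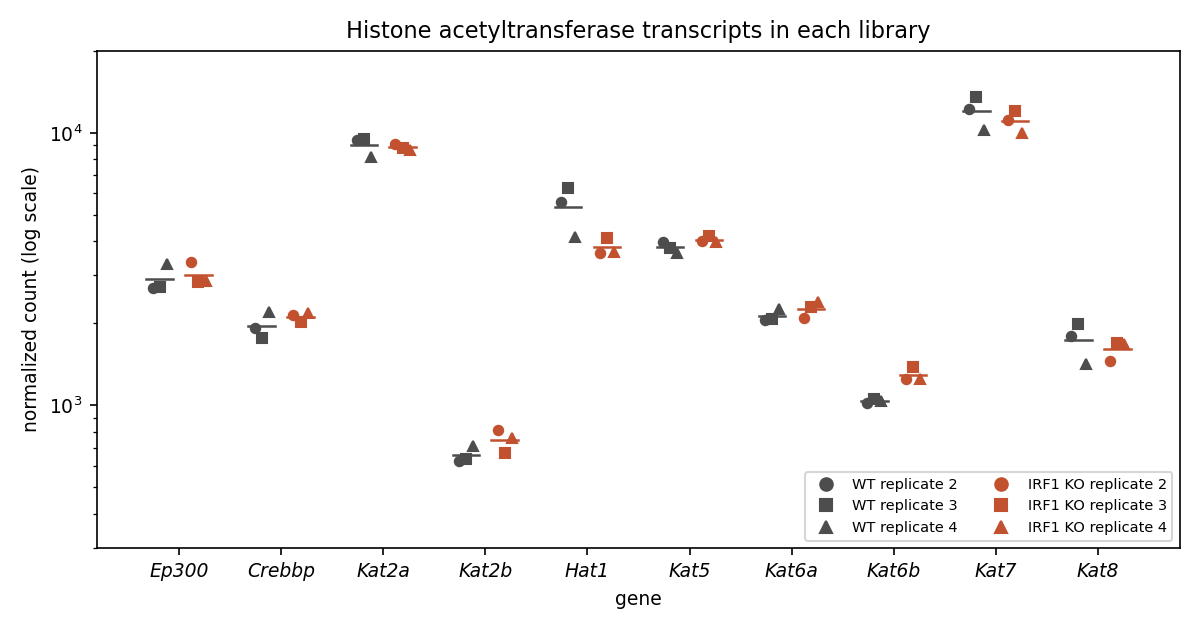
Normalized counts of the 10 histone acetyltransferase genes on a log axis, with 1 point per library (symbols mark the replicate number, gray is WT and orange is *Irf1-/-*) and a line at the mean of each genotype. The genotypes overlap for 8 genes, *Hat1* lies lower and *Kat6b* higher in all *Irf1-/-* libraries, and levels of different genes are not comparable on this scale because they are not divided by length.

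p300 and CBP are large coactivators that acetylate histone H3 at enhancers and promoters. *Ep300* had 3348, 2824, and 2859 normalized counts in *Irf1-/-* replicates 2, 3, and 4, and 2703, 2710.3, and 3288 in the WT replicates. The highest *Irf1-/-* library and WT replicate 4 were close to each other, and the genotypes overlapped. The log2 fold change of *Ep300* was 0.055 (95% confidence interval −0.18 to 0.29, adjusted *P* = 0.877, limma), and it was −0.023 without *Irf1-/-* replicate 2. *Crebbp*, which encodes CBP, had 2137, 2022, and 2187 normalized counts in *Irf1-/-* libraries and 1921, 1764, and 2204 in WT libraries. Here too WT replicate 4 held the highest WT value, and it exceeded all *Irf1-/-* libraries. The log2 fold change was 0.11 (95% confidence interval −0.12 to 0.35, adjusted *P* = 0.689, limma). Without WT replicate 4 the log2 fold changes were 0.15 for *Ep300* (adjusted *P* = 0.475, limma) and 0.20 for *Crebbp* (adjusted *P* = 0.317, limma, in a range of 0.317 to 0.939 over 16 alternatives). Without WT replicate 3 the value of *Crebbp* was 0.039. The ratio of *Ep300* to *Crebbp* within a library does not depend on library scaling. It was 1.57, 1.40, and 1.31 in *Irf1-/-* libraries and 1.41, 1.54, and 1.49 in WT libraries, and the genotypes overlapped (difference of log2 ratios −0.058, exact two-sided permutation test, *P* = 0.6, adjusted over 6 such tests 0.6).

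The GNAT family is represented by *Kat2a* and *Kat2b*, which encode the alternative catalytic subunits GCN5 and PCAF of the SAGA and ATAC complexes, and by *Hat1*. *Kat2a* had 9079, 8793, and 8663 normalized counts in *Irf1-/-* libraries and 9388, 9505, and 8118 in WT libraries. WT replicate 4 was the lowest of all 6 libraries, and the other WT libraries were the highest. The log2 fold change of *Kat2a* was −0.022 (95% confidence interval −0.21 to 0.17, adjusted *P* = 0.946, limma), and its sign changed with quantile normalization and without WT replicate 2 or 3. *Kat2b* had 813, 669.7, and 758 normalized counts in *Irf1-/-* libraries and 627, 636, and 711 in WT libraries. It was the member with the fewest reads, and its genotypes overlapped through *Irf1-/-* replicate 3 and WT replicate 4. The log2 fold change was 0.18 (95% confidence interval −0.12 to 0.48, adjusted *P* = 0.609, limma), or 0.12 when *Irf1-/-* replicate 2 was dropped. The ratio of *Kat2a* to *Kat2b* was 11.2, 13.1, and 11.4 in *Irf1-/-* libraries and 15.0, 15.0, and 11.4 in WT libraries. WT replicate 4 again lay among the *Irf1-/-* libraries (exact two-sided permutation test, *P* = 0.3, adjusted over 6 tests 0.45). The difference of log2 ratios was −0.20, and −0.33 without that library.

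HAT1 acetylates newly made histone H4 before it is deposited on DNA, and unlike the other members it acts largely on free histones. *Hat1* had 3635, 4109.8, and 3659 normalized counts in *Irf1-/-* replicates 2, 3, and 4. It had 5558, 6291, and 4137.5 in WT replicates 2, 3, and 4. All *Irf1-/-* libraries were thus below all WT libraries, but WT replicate 4 was only just above the highest *Irf1-/-* library. The mean was 5329 ± 1095 (SD, *n* = 3 mice) in WT and 3801 ± 267 in *Irf1-/-* HSCs, or 71.3% of WT. Among the members, *Hat1* had the largest absolute log2 fold change, −0.47 (SE 0.13, 95% confidence interval −0.75 to −0.19), and the lowest adjusted *P*, 0.0730 in limma, which did not pass the threshold. Without WT replicate 4 the log2 fold change was −0.64 (95% confidence interval −0.86 to −0.42) and *Hat1* was called, with an adjusted *P* of 0.00450 in limma. In that fit *Hat1* was the only member called, where 3.31% of all tested genes were called and 5.77% passed the threshold on the adjusted *P* alone. In 16 alternative settings *Hat1* was lower each time, and its adjusted *P* ranged from 0.00450 to 0.392 (limma, edgeR, or DESeq2) and was under 0.05 in 5 of them. Without WT replicate 3, the highest WT library, the log2 fold change was −0.34. Without WT replicate 4, 9 of the 10 members, all but *Kat5*, did not overlap between genotypes, compared with 38.2% of all tested genes. For 8 members, that library lay on the *Irf1-/-* side of the other WT libraries, so leaving it out widens their differences by construction. Neither this count nor the call of *Hat1* in that fit is separate support for a difference. With any other library left out, 2 or 3 members did not overlap, and the shares of all tested genes in those fits were not determined.

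**Figure D2:**
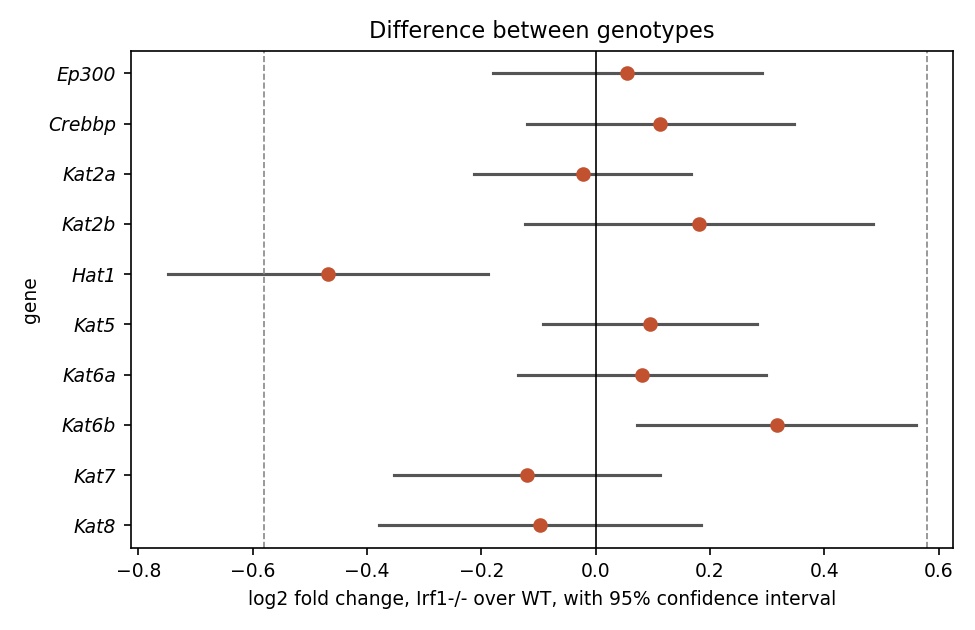
Log2 fold change of each member, *Irf1-/-* over WT (points), with the 95% confidence interval from limma (lines), a solid line at 0, and dashed lines at the fold change threshold of 0.58 in either direction. The intervals of *Hat1* (−0.75 to −0.19) and *Kat6b* (0.073 to 0.56) do not include 0, and the other 8 do.

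The MYST family is represented by 5 members. *Kat6a* and *Kat6b* encode MOZ and MORF, closely related enzymes that acetylate histone H3 and share the scaffold proteins BRPF1 to BRPF3. *Kat6b* had 1254, 1380.0, and 1249 normalized counts in *Irf1-/-* libraries and 1019.6, 1058, and 1036 in WT libraries. The genotypes did not overlap, and the WT libraries, including replicate 4, were within a coefficient of variation of 1.87%. The log2 fold change of *Kat6b* was 0.32 (SE 0.11, 95% confidence interval 0.073 to 0.56), which did not pass the threshold (adjusted *P* = 0.166, limma). In 16 alternative settings it lay between 0.27 and 0.34, with adjusted *P* values from 0.0678 to 0.393 (limma, edgeR, or DESeq2). *Kat6a* had 2084, 2299, and 2400.1 normalized counts in *Irf1-/-* libraries and 2061, 2081, and 2261 in WT libraries. Its genotypes overlapped (log2 fold change 0.082, 95% confidence interval −0.14 to 0.30, adjusted *P* = 0.776, limma), and leaving out *Irf1-/-* replicate 2 or 4 moved it to 0.14 or 0.037. The ratio of *Kat6a* to *Kat6b* was 1.66, 1.67, and 1.92 in *Irf1-/-* libraries and 2.02, 1.97, and 2.18 in WT libraries. Each *Irf1-/-* ratio was below each WT ratio, and the difference of log2 ratios was −0.24. With 3 mice against 3, *P* cannot go below 0.1 in the exact two-sided permutation test, and this difference reached 0.1 (0.2 after adjustment over 6 tests).

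*Kat7* encodes HBO1, which acetylates histone H3 and H4 and is tied to the licensing of replication origins. It had 11121, 11975, and 9993 normalized counts in *Irf1-/-* libraries and 12256, 13564, and 10271 in WT libraries. The genotypes overlapped through WT replicate 4 (log2 fold change −0.12, 95% confidence interval −0.35 to 0.11, adjusted *P* = 0.667, limma), and without that library the log2 fold change was −0.23 (adjusted *P* = 0.199, limma, in a range of 0.199 to 0.958 over 16 alternatives). It was nearer to 0 without WT replicate 3 (−0.029) or *Irf1-/-* replicate 4 (−0.051). *Kat8* encodes MOF, the main enzyme for acetylation of histone H4 at lysine residues of its tail in the MSL and NSL complexes. It had 1454, 1691, and 1677 normalized counts in *Irf1-/-* libraries and 1796, 1981, and 1418 in WT libraries. WT held both the highest and the lowest values of *Kat8* (log2 fold change −0.097, 95% confidence interval −0.38 to 0.19, adjusted *P* = 0.802, limma), and without WT replicate 4 the log2 fold change was −0.23 (adjusted *P* = 0.284, limma) and without WT replicate 3 it was 0.0071. *Kat5* encodes TIP60, the catalytic subunit of a complex that acts in transcription and DNA repair. It had 4006, 4181, and 3968 normalized counts in *Irf1-/-* libraries and 3975, 3793, and 3617 in WT libraries. For *Kat5*, WT replicate 4 lay on the side away from the *Irf1-/-* libraries, and the overlap was small (log2 fold change 0.095, 95% confidence interval −0.093 to 0.28, adjusted *P* = 0.674, limma). Dropping that library gave 0.061.

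Levels of different members were compared per kilobase, with the length of the longest protein-coding transcript of each gene in GENCODE vM1. In WT HSCs, the highest levels were 3379 ± 466 (SD, *n* = 3 mice) normalized counts per kb for *Kat7*, 2956 ± 253 for *Kat2a*, and 2806 ± 576 for *Hat1*, which overlapped one another. *Kat5* (1682 ± 79.5), *Kat8* (1101 ± 182), and *Ep300* (332 ± 38.3) followed, each separated from its neighbors in all WT libraries. *Crebbp* (261 ± 29.7) and *Kat6a* (234 ± 12.1) overlapped each other, as did *Kat6b* (143 ± 2.68) and *Kat2b* (141 ± 9.94) at the bottom of the order. Among the tested genes with a length (88.7%), *Kat7* stood at the 90.8th percentile of WT levels per kb and *Kat2b* at the 37.8th. The order was the same in *Irf1-/-* HSCs, where *Hat1* (2002 ± 141) no longer overlapped *Kat2a* (2904 ± 70.0). Genes of the p300/CBP and MOZ/MORF type thus had lower counts per length than *Kat7*, *Kat2a*, *Hat1*, *Kat5*, and *Kat8* in both genotypes. They also have the longest transcripts of the members, 7234 to 9113 bases, compared with 1573 to 3560 bases for the genes above them. The part of transcript length in this order was not tested. With coding lengths in place of transcript lengths, *Kat7* no longer overlapped the next member, and *Hat1* was placed above *Kat2a* in WT HSCs. *Kat6a* then followed *Ep300* and overlapped it, *Kat2b* overlapped *Crebbp* below them, and *Kat6b* was the lowest, without overlap.

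Summed per length, the MYST members made up 50.02%, 50.04%, and 50.5% of the level of all 10 members in WT libraries. In *Irf1-/-* libraries their share was 52.0%, 53.8%, and 52.2%, above every WT library. The GNAT share was 42.4%, 41.5%, and 42.5% in *Irf1-/-* libraries and 45.8%, 46.1%, and 43.7% in WT libraries, without overlap in the other direction. Both families reached 0.1, the lowest *P* of this exact permutation test, or 0.2 after adjustment over 6 tests. The shares of a whole are tied to each other, and *Hat1* is the GNAT member with the largest difference. The p300/CBP share was small and overlapped between genotypes, at 4.63 ± 1.07% (SD, *n* = 3 mice) in WT and 5.21 ± 0.436% in *Irf1-/-* HSCs (exact two-sided permutation test, *P* = 0.5). The difference was 0.582 percentage points, 1.19 without WT replicate 4 and 0.181 without WT replicate 3.

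Genes around the members were described as lists, 111 genes in all, which cover subunits, partners, other acetyltransferases, acetyl-CoA supply, and readers of acetylated lysines. Of these, 39 had a higher and 72 a lower log2 level in *Irf1-/-* HSCs (median −0.044), 1 passed limma's threshold of 0.05 on the adjusted *P* (3.22% of all tested genes did), 22 passed it on the unadjusted *P* (16.5% of all tested genes did), and 24.3% did not overlap between genotypes, compared with 19.9% of all tested genes. The gene that passed was *Cited2*, whose product binds p300/CBP and competes with HIF1A for them, and which is known as a gene that HSCs need. It had 14572, 12469, and 11782 normalized counts in *Irf1-/-* libraries and 9619, 10235, and 9242 in WT libraries. All *Irf1-/-* libraries were higher, and the log2 fold change was 0.41 (SE 0.095, 95% confidence interval 0.21 to 0.62, adjusted *P* = 0.0318, limma), below the fold change threshold. Over 16 alternatives the adjusted *P* of *Cited2* ranged from 0.00159 to 0.289 (limma, edgeR, or DESeq2), and it was above 0.05 without *Irf1-/-* replicate 2 (0.137), 3 (0.0511), or 4 (0.0532), without WT replicate 2 (0.112), and when limma was fitted without the trend (0.289).

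Of the 12 p300/CBP partners, 5 were higher and 7 lower (median log2 fold change −0.066). With single libraries left out the median ranged from −0.12 (without WT replicate 4) to −0.0068 (without *Irf1-/-* replicate 4, 6 higher and 6 lower). *Cited4*, a relative of *Cited2*, had the next lowest *P* in this list, with a difference of −0.62 on the log2 scale (adjusted *P* = 0.200, limma). Among 32 subunits of SAGA and ATAC, the complexes of *Kat2a* and *Kat2b*, 10 were higher and 22 lower (median −0.081), with 0 at an adjusted *P* under 0.05 in limma and 5 at an unadjusted *P* under 0.05, where the shares of all tested genes were 3.22% and 16.5%. *Tada2b*, a SAGA adaptor subunit next to the catalytic subunit, had 277, 228, and 265 normalized counts in *Irf1-/-* libraries and 401, 454, and 357 in WT libraries (log2 fold change −0.65, adjusted *P* = 0.0881, limma). Its genotypes did not overlap, and DESeq2 on the recovered reads gave it an adjusted *P* of 0.0137 in a range of 0.0137 to 0.317 over 16 alternatives. *Taf9*, shared by SAGA and TFIID, had a mean difference of −0.30 on the log2 scale (adjusted *P* = 0.141, limma). With quantile normalization 13 subunits were higher and 19 lower (median −0.037).

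Of 17 TIP60 complex subunits, 4 were higher and 13 lower (median −0.042), or 7 higher and 10 lower with quantile normalization (median −0.013), with 0 at an adjusted *P* under 0.05 in limma (3.22% of all tested genes) and 3 at an unadjusted *P* under 0.05 (16.5%). *Actl6a*, an actin-related subunit that TIP60 shares with BAF remodelers, had 6749, 7595, and 6414 normalized counts in *Irf1-/-* libraries and 9194, 9443, and 7883 in WT libraries. These did not overlap (log2 fold change −0.35, adjusted *P* = 0.0720, limma), and the adjusted *P* was under 0.05 in 6 of 16 alternatives (range 0.0145 to 0.347). *Morf4l2* had a mean difference of −0.27 on the log2 scale (adjusted *P* = 0.172, limma). The 9 MOZ/MORF and HBO1 subunits were split into 5 higher and 4 lower (median 0.018), with none at an unadjusted *P* under 0.05 in limma (16.5% of all tested genes) and none that was separated between genotypes (19.9%). Their median had no stable sign, at −0.013 with median centring and, with single libraries left out, between −0.037 when *Irf1-/-* replicate 3 was dropped and 0.097 when WT replicate 3 was. The scaffold genes with the lowest *P* among them were *Jade1* (0.15, adjusted *P* = 0.596, limma) and *Brpf1* (−0.11, adjusted *P* = 0.615, limma). Without WT replicate 4 they were at 0.029 and −0.18, and without WT replicate 3 at 0.25 and −0.047. The 11 MSL and NSL subunits, which work with *Kat8*, were split into 6 higher and 5 lower (median 0.0067, and −0.047 without WT replicate 4), with 0 at an adjusted *P* under 0.05 in limma (3.22% of all tested genes) and 1 at an unadjusted *P* under 0.05 (16.5%). *Kansl1*, the NSL scaffold, had 8052, 8583, and 7677 normalized counts in *Irf1-/-* libraries and 6734, 6666, and 6389 in WT libraries. All *Irf1-/-* libraries were higher (log2 fold change 0.30, adjusted *P* = 0.0764, limma), and the adjusted *P* was under 0.05 in 3 of 16 alternatives (range 0.0140 to 0.310). *Kansl3* of the same complex had a mean difference of 0.15 on the log2 scale (adjusted *P* = 0.399, limma).

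HAT1 hands acetylated histones to chaperones, and its partners and the chaperones of new histones were described as 1 list. All 8 genes were lower in *Irf1-/-* HSCs (median log2 fold change −0.25, compared with −0.0028 over all tested genes), or 7 of 8 with quantile normalization and without *Irf1-/-* replicate 2, WT replicate 2, or WT replicate 3. None passed limma's threshold of 0.05 on the adjusted *P*, and 5 passed it on the unadjusted *P*, compared with 3.22% and 16.5% of all tested genes. *Nasp*, a chaperone that binds histone H3 and H4 with HAT1, had 2061, 2363, and 2078 normalized counts in *Irf1-/-* libraries and 3051, 3544, and 2399 in WT libraries. Its libraries followed the pattern of *Hat1*, with WT replicate 4 just above the highest *Irf1-/-* library (log2 fold change −0.45, SE 0.13, adjusted *P* = 0.0822, limma). *Asf1b*, the proliferation-linked copy of the histone H3 and H4 chaperone ASF1, had 3278, 3531, and 2252 normalized counts in *Irf1-/-* libraries and 4974, 5380.1, and 3333 in WT libraries. WT replicate 4 lay within the range of the *Irf1-/-* libraries (log2 fold change −0.59, SE 0.18, adjusted *P* = 0.0975, limma). Without WT replicate 4, 3 of the 8 genes had an adjusted *P* under 0.05 (5.77% of all tested genes did in that fit), among them *Nasp* (log2 fold change −0.60, adjusted *P* = 0.00950, limma) and *Asf1b* (−0.80, adjusted *P* = 0.0117, limma). Both were weaker without other libraries, at −0.32 for *Nasp* without WT replicate 3 and −0.39 for *Asf1b* without *Irf1-/-* replicate 4. Over 16 alternatives the adjusted *P* ranged from 0.00950 to 0.381 for *Nasp* and from 0.00216 to 0.446 for *Asf1b* (limma, edgeR, or DESeq2), under 0.05 in 3 each.

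Genes of proliferation were lower in the same libraries. All 20 genes of the proliferation list had a lower log2 level in *Irf1-/-* HSCs (median −0.50), also under each scaling tried and with each library left out. *Top2a*, *Aurkb*, *Tk1*, *Cdk1*, *Mki67*, and *Tyms* fell at an adjusted *P* under 0.05 in limma (6 of 20, compared with 3.22% of all tested genes), and 3 of the 20 were called (1.91% of all tested genes were). Their summed level was 207694, 216235, and 175375 normalized counts in *Irf1-/-* libraries and 282865, 310384, and 227157 in WT libraries, with *Mcm6*, a subunit of the replicative helicase, the most abundant and none at 0. WT replicate 4 was the lowest WT library here, as it was for *Hat1* and *Nasp*, and WT replicate 3 the highest. *Top2a*, which untangles replicated DNA, had a mean difference of −0.77 on the log2 scale (adjusted *P* = 0.0177, limma). With single libraries left out, the number of proliferation genes with an adjusted *P* under 0.05 in limma was 2 without *Irf1-/-* replicate 2, 7 without *Irf1-/-* replicate 3, 0 without *Irf1-/-* replicate 4 or WT replicate 2 or 3, and 18 without WT replicate 4. Some markers of other lineages, listed after the values were seen, differed as well. *Klf1* (erythroid, −0.72, adjusted *P* = 0.0361, limma), *Pf4* (megakaryocyte, −1.11, adjusted *P* = 0.00334, limma), and *Gp1bb* (megakaryocyte, −0.90, adjusted *P* = 0.00320, limma) were lower in *Irf1-/-* HSCs. Of the 6 tested neutrophil and granulocyte progenitor genes, 4 were higher and 2 lower. *Prtn3* (0.53, adjusted *P* = 0.0334, limma) passed the threshold, and *S100a8* (−0.84, adjusted *P* = 0.793, limma) and *S100a9* (−0.59, adjusted *P* = 0.885, limma) had the other sign, with their highest level in WT replicate 4. That sign rested on 1 library, since without it the values were 0.93 for *S100a8* (adjusted *P* = 0.492, limma) and 1.39 for *S100a9* (adjusted *P* = 0.302, limma), and all 6 genes were then higher. The parts of cell cycle activity and of other cell types in the level of *Hat1* were not tested.

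**Figure D3:**
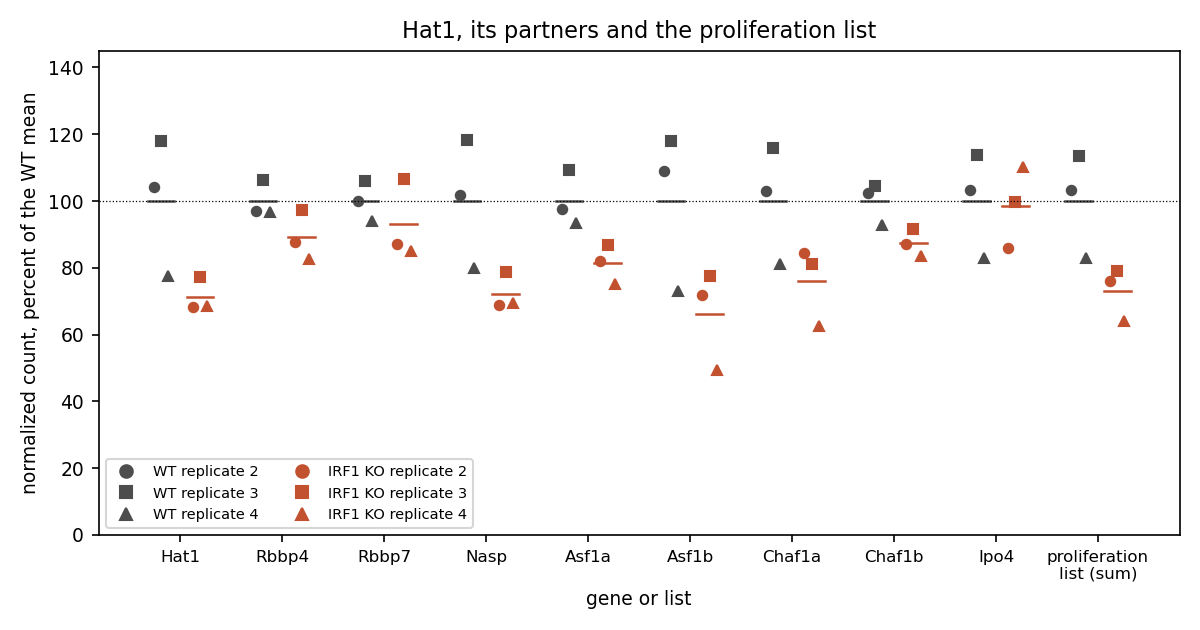
Normalized counts as percent of the WT mean for *Hat1*, the 8 genes of its partner list, and the summed level of the 20 proliferation genes, with 1 point per library (symbols mark the replicate number, gray is WT and orange is *Irf1-/-*) and a line at the mean of each genotype. The *Irf1-/-* mean is below the WT mean for each of them, at 71.3% for *Hat1*, and WT replicate 4 is the lowest WT library throughout.

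The remaining lists cover acetyltransferases outside the members, acetyl-CoA supply, and proteins that read acetylated lysines. Of 8 other acetyltransferases, 3 were higher and 5 lower (median log2 fold change −0.059), with 0 at an adjusted *P* under 0.05 in limma (3.22% of all tested genes) and 1 at an unadjusted *P* under 0.05 (16.5%). The median was −0.12 when WT replicate 4 was dropped and 0.0048 (4 higher and 4 lower) when WT replicate 3 was. *Esco2*, which acetylates cohesin during replication, had 929.6, 909.9, and 664 normalized counts in *Irf1-/-* libraries and 1280.4, 1248, and 951 in WT libraries (log2 fold change −0.48, adjusted *P* = 0.140, limma). It did not overlap between genotypes, and again WT replicate 4 was nearest to the *Irf1-/-* libraries. Without that library *Esco2* was at −0.61 (adjusted *P* = 0.0427, limma, in a range of 0.0388 to 0.491 over 16 alternatives). *Taf1*, a TFIID subunit, had a mean difference of −0.14 on the log2 scale (adjusted *P* = 0.517, limma). Of 8 genes of acetyl-CoA supply, 2 were higher and 6 lower (median −0.079). Their median was −0.13 without *Irf1-/-* replicate 3 and −0.033 (3 higher and 5 lower) without WT replicate 3. In limma, 0 had an adjusted *P* under 0.05 (3.22% of all tested genes) and 2 an unadjusted *P* under 0.05 (16.5%). These were *Acss2*, which makes acetyl-CoA from acetate (log2 fold change −0.22, adjusted *P* = 0.219, limma), and *Crat*, which moves acetyl groups between CoA and carnitine (0.29, adjusted *P* = 0.219, limma, and 0.19 when *Irf1-/-* replicate 3 was dropped). Of 10 readers of acetylated lysines, 6 were higher and 4 lower (median 0.043), or 4 higher and 6 lower without WT replicate 4 (median −0.032), with 0 at an adjusted *P* under 0.05 in limma (3.22% of all tested genes) and 2 at an unadjusted *P* under 0.05 (16.5%). *Mllt3*, a YEATS domain protein known as a regulator of HSC maintenance, had 6518, 6929, and 8034 normalized counts in *Irf1-/-* libraries and 6282, 5315, and 5551 in WT libraries (log2 fold change 0.32, adjusted *P* = 0.108, limma). Its libraries did not overlap, whereas those of *Zmynd8*, a bromodomain protein, did (0.21, adjusted *P* = 0.279, limma).

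Promoter windows of the members, from 250 bases before to 50 bases after each start, were taken from RefSeq (GRCm38.p6), which differs from the build mm39 that the submitters' notes name for the alignment. Of the 10 members, 9 had an entry, with 13 windows in all, and *Kat6a* had none. The core of the interferon-stimulated response element that IRF factors bind, GAAANNGAA, was searched on both strands and was found in 8.56% of all 32851 windows. E2F forms, which are linked to proliferation, were searched as TTTCCCGC, TTTCGCGC, TTTGCCGC, and TTTGGCGC on both strands and were found in 2.27% of all windows. Neither was found in the window of *Hat1* or those of *Kat6b*, the members whose genotypes did not overlap. The stretches of the members that held one of them are shown because IRF1 is the factor removed, each read on the strand that carries the motif, with the motif in capitals. For *Kat5* the stretch is at chr19:5610112-5610140 (plus strand, opposite to the gene), for *Kat8* at chr7:127912971-127912999 (minus strand, opposite to the gene), and for *Kat2a* at chr11:100712509-100712536 (plus strand, opposite to the gene). In the direction of the gene, the motifs begin 36, 33, and 59 bases before the annotated start of *Kat5* (the more upstream of its starts), *Kat8* (the more downstream of its starts), and *Kat2a*. No window of a member held both kinds.
Kat5, GAAANNGAA: gaagctgtttGAAAGGGAAacacttgaga
Kat8, GAAANNGAA: aatgaagcctGAAATCGAAccagagtgaa
Kat2a, E2F form: gtagtcttccTTTGCCGCttcccatcct
With all libraries, the log2 fold changes of these members were among the smaller ones, 0.095 for *Kat5*, −0.097 for *Kat8*, and −0.022 for *Kat2a*. Without WT replicate 4, that of *Kat8* was −0.23. A match is a description of letters, and binding was not tested.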

How the data were processed

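Bulk RNA-seq of sorted HSCs from 3 WT and 3 *Irf1-/-* mice was used. Groups and replicate numbers follow the labels. The authors prepared cDNA with the SMART-Seq v4 kit, which does not mark strand or molecules, and libraries with Nextera XT. Reads were trimmed with Trim Galore, aligned with HISAT2 (mm39, per the submitters' processing notes), counted with Htseq-count, and normalized with DESeq2 on Galaxy. The deposited values are a signal, the count of each gene divided by 1 size factor per library. The annotation, strand setting, and versions are not given in the sources used here, so reads of overlapping or antisense genes cannot be told apart.

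Divided by the worth of 1 read in their library, all values (100%) were whole within 0.001, and the reads recovered in this way were between 43138521 and 59658080 per library. No pair of replicates agreed within sampling noise. PCR copies are not independent molecules. limma 3.58.1 in R 4.3.3 (intensity trend, pseudocount 1, mean of at least 10, Benjamini-Hochberg adjustment over 17404 genes) was the main test, since the values are not raw counts. edgeR 4.0.16 and DESeq2 1.42.0 were run on the recovered reads as alternatives and called 323 and 510 genes, compared with 333 in limma. Scripts were tested on simulated data. Other alternatives were the pseudocount, the filter, the trend, the scaling, a replicate block, and each library left out. Single values were compared with exact two-sided permutation tests (smallest *P* 0.1).

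The members and lists were chosen with earlier results of these data known. Named genes are the 10 members, *Irf1*, and from each list of partners every gene with an adjusted *P* under 0.05 in limma, or the genes with the lowest *P* up to 2 where fewer passed. Markers are given by their summed level, their most abundant gene, and those at 0. Single markers were named after their values were seen. One marker of the HSC list is not reported here and was left out of its sum. Lengths came from GENCODE vM1, where *Kat6a*, *Kat6b*, *Kat7*, and *Kat8* were matched through RefSeq synonyms. A comparison of member proteins was planned and not run, because no protein table was used here. Figures were drawn with matplotlib 3.10.9.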

Additional observations from a re-analysis of the deposited data

How the results depend on the processing

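Of the members, *Crebbp*, *Kat2b*, *Kat5*, *Kat6a*, *Kat6b*, *Kat7*, and *Hat1* kept the sign of their log2 fold change in all 16 alternatives, and only *Hat1* crossed the threshold in any. With quantile normalization, *Kat2a* had a log2 fold change of 0.030, *Hat1* was under 0.05 at −0.43 (adjusted *P* = 0.0430, limma), and 1 member, 4 genes of the 111 in the lists around the members, and 11 proliferation genes among 785 genes in all passed the threshold of 0.05 on limma's adjusted *P*. With median centring, *Hat1* passed at −0.50 (adjusted *P* = 0.0422, limma), the median of the members was 0.038, and 1 member, 2 listed genes, and 14 proliferation genes passed, among 644 genes in all. With DESeq2, *Hat1* passed at −0.49 (adjusted *P* = 0.00725), 510 genes were called and 1268 passed, among them 1 member, 8 listed genes, and 19 proliferation genes. Without the trend in limma, 40 genes were called and 40 passed, with 0 listed and 0 proliferation genes. With the filter raised to a mean of 100, 10 proliferation genes passed in limma, where fewer genes were tested. The causes of the other shifts were not tested.

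Under the replicate block, 415 genes were called compared with 333, and 1075 passed the threshold on the adjusted *P* of limma, among them 1 member (*Hat1*, −0.47, adjusted *P* = 0.0201, limma), 9 listed genes, and 20 proliferation genes. The labels give same-numbered samples a shared number and state no pairing. Deviations of same-numbered libraries correlated at −0.094, 0.25, and 0.15 across genes, and not every sample correlated best with its own number. With so few libraries per genotype, these values cannot settle whether same-numbered libraries share a batch.

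With each library left out in turn, which leaves fewer samples, genes called ranged from 204 to 569 and genes passing on limma's adjusted *P* from 230.0 to 992. Members called ranged from 0 to 1, members passing from 0 to 1, and members without overlap from 2 to 9. The 9 came without WT replicate 4, where 38.2% of all tested genes did not overlap. That library lay on the *Irf1-/-* side of the other WT libraries for 8 of the 10 members, so leaving it out widens their differences by construction. For the other fits that share was not determined. Listed genes passing ranged from 0 to 6 and proliferation genes from 0 to 18. The median of the members ranged from 0.029 to 0.092. Log2 fold changes ranged from −0.64 to −0.34 for *Hat1*, from −0.023 to 0.15 for *Ep300*, from 0.039 to 0.20 for *Crebbp*, from −0.095 to 0.019 for *Kat2a*, from 0.12 to 0.26 for *Kat2b*, from 0.061 to 0.13 for *Kat5*, from 0.037 to 0.14 for *Kat6a*, from 0.27 to 0.34 for *Kat6b*, from −0.23 to −0.029 for *Kat7*, and from −0.23 to 0.0071 for *Kat8*. Over the same fits the difference of log2 ratios ranged from −0.13 to 0.0015 for *Ep300* over *Crebbp*, from −0.33 to −0.14 for *Kat2a* over *Kat2b*, and from −0.30 to −0.19 for *Kat6a* over *Kat6b*. Differences of shares ranged from 0.181 to 1.19 percentage points for p300/CBP, from −3.85 to −2.60 for GNAT, and from 1.94 to 2.82 for MYST. Medians ranged from −0.12 to −0.051 for SAGA and ATAC, from −0.087 to −0.037 for TIP60, from −0.047 to 0.025 for MSL and NSL, from −0.29 to −0.20 for the partners of HAT1, from −0.13 to −0.033 for acetyl-CoA supply, and from −0.032 to 0.056 for readers. Alternatives for the lists, ratios, and shares were chosen after seeing the data. With 3 mice per genotype and all libraries, none of the 10 members passed the threshold of 0.05 on limma's adjusted *P*. The confidence intervals, which are not adjusted for the number of genes, included 0 for 8 members. Without WT replicate 4 the interval of *Kat7* (−0.44 to −0.017) did not include 0.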

Other observations

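The 4 megakaryocyte genes were all lower in *Irf1-/-* HSCs (median log2 fold change −0.73, 2 at an adjusted *P* under 0.05 in limma, compared with 3.22% of all tested genes), with a summed level of 40206, 24550, and 35519 normalized counts in *Irf1-/-* libraries and 47040.1, 59984, and 45022 in WT libraries, *Itga2b* the most abundant, and none at 0. Of the 6 erythroid genes, *Hba-a1*, *Hba-a2*, *Hbb-bt*, and *Hbb-bs* were at 0 in all libraries, and *Klf1* made up 96.9% of a sum of 925, 622, and 957 in *Irf1-/-* libraries and 1436, 1319, and 1201 in WT libraries. The 5 B cell genes summed to between 2642 and 3077 normalized counts in all libraries, 96.6% of it *Cd79b*. The 6 T and NK cell genes summed to between 442 and 891, 90.1% of it *Klrb1c*. The 5 monocyte and macrophage genes summed to between 24820 and 33845, 91.2% of it *Lyz2*. The 4 stroma genes summed to between 776 and 2119, 89.3% of it *Col1a2*. No gene of these last lists was at 0 in all libraries, and their part in the levels of the acetyltransferases was not tested.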
